A study of Saccharomyces cerevisiae with 14 samples.

Results

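Yeast cells make serine from the glycolytic intermediate phosphoglycerate. The paralogs Ser3 and Ser33, phosphoglycerate dehydrogenases, open the pathway, and the transaminase Ser1 and the phosphatase Ser2 complete it. Serine hydroxymethyltransferase, mitochondrial Shm1 and cytosolic Shm2, turns serine into glycine and passes a one-carbon unit to folate. The mitochondrial glycine cleavage complex, with its subunits Gcv1 and Gcv2, breaks glycine down. Cha1 is the mitochondrial deaminase that lets cells use serine and threonine as nitrogen sources. Its gene is transcribed when these amino acids are supplied, through the zinc-cluster activator Cha4. SER3 is known for the opposite response, being repressed in serine-rich medium.

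The 10 genes CHA1, CHA4, SER1, SER2, SER3, SER33, SHM1, SHM2, GCV1 and GCV2 were taken from the 5449 genes of Saccharomyces cerevisiae with a named probe set on the arrays. Each was read by 1 probe set, and all 10 were among the 5415 genes whose mean signal passed the filter on dim genes. On each of the 14 arrays they were brighter than the background, for which fission yeast probe sets served. The genes were chosen by their function and by measured values, since their signals in all 6 groups and their changes in the 3 altered strains were already known. Their changes, and the differences between the wild types, are therefore given as a description with standard errors. Counts of members under the threshold used for all genes, an adjusted p of 0.05, stand beside the share of all genes under it, and nothing is read from them.

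Total RNA from cultures grown at 30 °C was measured on 14 Affymetrix Yeast 2.0 arrays, 1 per biological replicate, in 3 experiments that each had their own wild type. The set1 deletion (set1::KanMx, with his3-1, leu2-0, met15-0 and ura3-0) had 2 arrays and its wild type had 2. The jhd2 deletion (jhd2::KanMX, with his3∆1, le2∆0, lys2∆0 and ura3∆0) had 3 arrays and its wild type had 3. The JHD2 overexpression strain, labelled jhd2∆::KanMx plus JHD2 O/E with his3-1, leu2-0, lys2-0 and ura3-0, had 2 arrays and its wild type had 2. Each wild type is labelled his3∆1, le2∆0, lys2∆0 and ura3∆0 with TRP+, ADE+ and MET15+ (Met15+ in the set1 experiment). By these labels the set1 deletion also differs from its wild type at MET15, and its label lists no lys2 allele. Neither the growth medium nor the promoter that drives JHD2 is given by the labels. Set1 places methyl groups on lysine 4 of histone H3 and Jhd2 removes them, and the study set the strains side by side to separate the effects of Jhd2 that run through this mark from those that do not.

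SET1 was at 1.13 and 3.31 where it is deleted and at 395.4 to 701.2 on the remaining arrays. JHD2 gave 0.23 to 3.41 on the jhd2 deletion arrays, 5207 and 6237 on the overexpression arrays, and 118.8 to 226.3 elsewhere. The experiments also differed in ways their labels do not give. LEU2 gave 6823 to 7294 on the 4 arrays of the overexpression experiment and at most 46.2 on the other 10. Genes specific to a cells averaged 10.64 to 10.84 on the log2 scale in the set1 experiment and 5.23 to 6.24 in the other experiments. A sign of RNA integrity, how far 3′ control probe sets exceed 5′ ones on the log2 scale, was 1.02 and 1.48 on the overexpression arrays, against 0.69 and 0.33 in their wild type, and ran from -0.03 to 1.32 on the other 10.

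CHA1, the deaminase gene, was far lower in the JHD2 overexpression strain. Its signals were 177.3 and 270.5 in that strain, against 1353 and 1213 in its wild type, which is 5.85-fold lower. On the log2 scale the change was -2.55 ± 0.17 (SE, n = 2 against 2). Here and below, the SE of a log2 change rests on the gene's spread within all 6 groups, not on the compared arrays alone. In limma that spread is also drawn toward the trend over genes of similar signal. For CHA1 the log2 SD was 0.43 on the overexpression arrays and 0.11 in their wild type. The groups were far apart, and the gap between them was several times the spread within either. In these bulk RNA samples, fewer cells transcribing a gene and less RNA per cell cannot be told apart.

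The set1 deletion had CHA1 signals of 2455 and 2532, against 3231 and 3176 in its wild type. The change was -0.36 ± 0.17, and both deletion arrays lay below both wild-type arrays. In the jhd2 deletion the signals were 3155, 3211 and 2662, against 2981, 3008 and 2832 in the wild type. These groups overlapped, with a log2 change of 0.03 ± 0.14 and a 95% interval of -0.27 to 0.33. The fit behind this interval did not pair same-numbered arrays, and the 3 numbered pairs gave 0.08, 0.09 and -0.09. Over the 6 groups the mean signal of CHA1 was lowest with JHD2 overexpression, at 223.9 ± 65.9 (SD, n = 2). Next came the wild type of the overexpression experiment at 1283 ± 99.0 (n = 2) and the set1 deletion at 2493 ± 54.9 (n = 2). The remaining means, 2940 ± 94.7 in the wild type of the jhd2 experiment, 3009 ± 302.1 in the jhd2 deletion and 3204 ± 38.7 in the wild type of the set1 experiment, lay close together. The jhd2 deletion overlapped both of the others.

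CHA4, whose product activates CHA1, differed little in the same arrays. Its signals were 544.6 and 452.3 with JHD2 overexpression, against 497.4 and 410.1 in the wild type, and the groups overlapped. The log2 changes of CHA4 were -0.17 ± 0.17 in the set1 deletion, -0.04 ± 0.14 in the jhd2 deletion and 0.14 ± 0.17 with overexpression. The 95% interval of the overexpression change ran from -0.23 to 0.50.

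**Figure D1:**
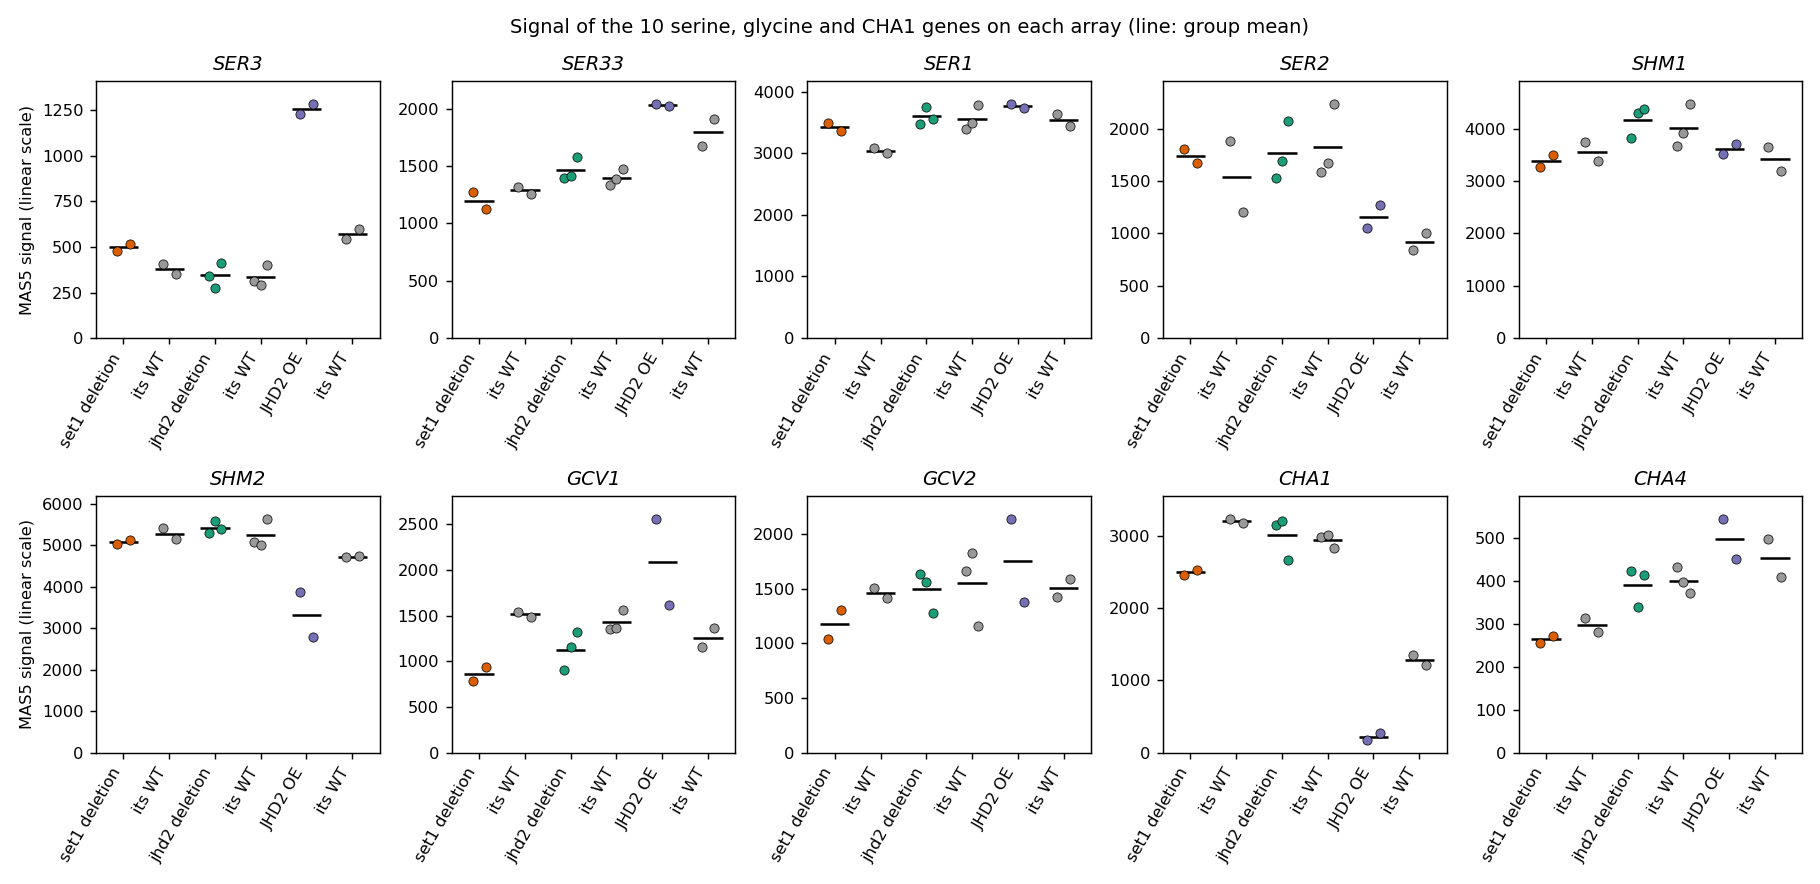
MAS5 signal on a linear scale (vertical axis, from 0) of each of the 10 genes on the 14 arrays, by group, with each altered strain left of its wild type. Points are arrays and lines are group means. CHA1 is at 177.3 and 270.5 on the JHD2 overexpression (OE) arrays, where SER3 is at 1230.1 and 1282.

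Of the genes that begin serine synthesis, SER3 was higher where CHA1 was low. SER3 gave 1230.1 and 1282 with JHD2 overexpression, against 544.2 and 599.6 in the wild type, a 2.20-fold difference with a log2 change of 1.14 ± 0.20 (SE, n = 2 against 2). Both overexpression arrays were about as far from each other as the 2 wild-type arrays were, and the groups did not overlap. In the limma fit over all genes 2 of 10 members, CHA1 and SER3, were under the threshold, beside 0.517% of all tested genes. SER3 was the 1 higher one, beside 0.166% of all genes, and CHA1 the 1 lower one, beside 0.351%. As both were chosen with these changes known, the count is no evidence about the members. SER3 was not under the threshold when any 1 of 9 arrays was left out (both set1 deletion arrays, wild-type replicates 1 and 2 and deletion replicate 1 of the jhd2 experiment, and the 4 arrays of the overexpression experiment), with changes of 1.07 to 1.21. With the 3′ to 5′ ratio as a covariate, chosen after seeing the data, SER3 was at 0.93 and not under the threshold, while CHA1 was.

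SER33, the paralog of SER3, differed far less in the same arrays. It gave 2038 and 2025 with overexpression, against 1679 and 1907 in the wild type, a log2 change of 0.18 ± 0.12. SER1, for the transaminase, was at 3796 and 3738 against 3637 and 3448 (0.09 ± 0.09). SER2, for the phosphatase, was at 1051 and 1273 against 837.7 and 1003 (0.34 ± 0.23). Both overexpression arrays were above both wild-type arrays for each of the 4 synthesis genes, an order that 31.1% of all tested genes showed. Over the 10 members the groups were apart for 7 (63% of all tested genes), 5 higher and 2 lower (31.9%).

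In the set1 deletion SER3 gave 480.4 and 518.2, against 404.7 and 352.9 in the wild type, a log2 change of 0.40 ± 0.20. SER1 was at 0.17 ± 0.09, SER2 at 0.21 ± 0.23 and SER33 at -0.10 ± 0.12. SER2 rested on a wild type whose own arrays differed, at 1881 and 1202, and its change was 0.53 without wild-type replicate 1 and -0.11 without wild-type replicate 2. In the jhd2 deletion the 4 changes ran from -0.05 to 0.06 and every pair of groups overlapped. For SER3 the jhd2 deletion gave 342.7, 277.1 and 412.7, against 314.1, 290.3 and 403.2 in the wild type. Replicate 3 was the highest array of both groups. By numbered pair SER33 gave 0.06, 0.02 and 0.10, while SER1, SER2 and SER3 each had pairs of both signs.

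Set against each other, synthesis and catabolism diverged most with JHD2 overexpression. The mean log2 signal of SER1, SER2, SER3 and SER33 minus that of CHA1 was 3.25 and 2.72 above the wild-type mean on the 2 overexpression arrays, and the 2 wild-type arrays lay 0.14 below and above that mean. Most of this difference came from CHA1, at -2.85 and -2.24 relative to the wild-type mean on these arrays, where the synthesis mean was at 0.40 and 0.47. The set1 deletion arrays were 0.58 and 0.48 above their wild-type mean, whose own arrays lay 0.11 to either side. The jhd2 deletion arrays were at -0.16, -0.19 and 0.31, against -0.12, -0.12 and 0.24 in their wild type. In the wild type of the overexpression experiment the same difference was 1.24 above that of the jhd2 experiment and 1.47 above that of the set1 experiment. As a score over chosen genes it has no test.

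**Figure D2:**
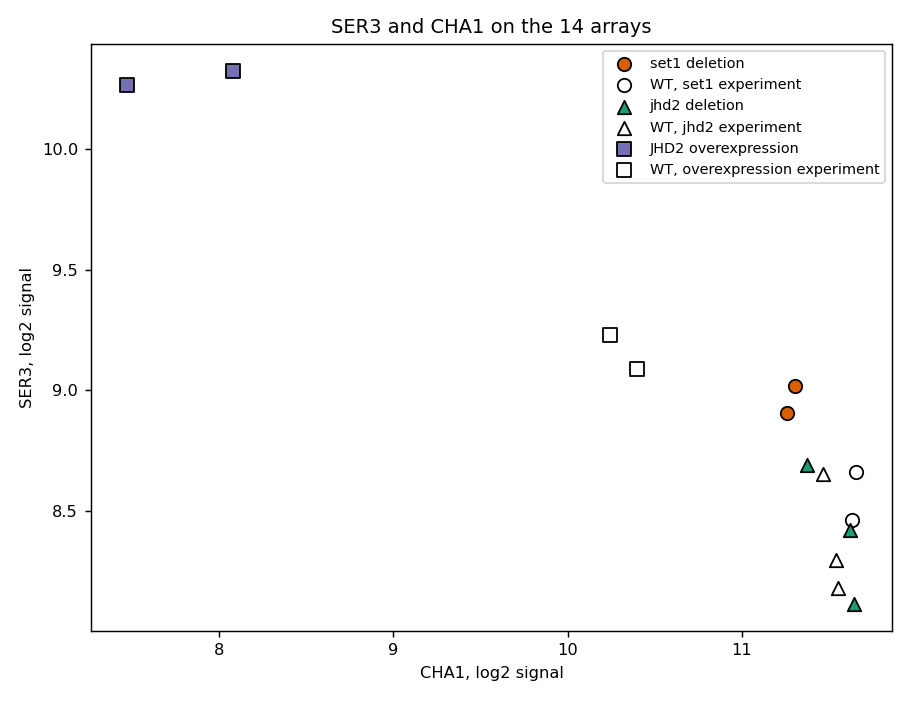
Log2 signal of SER3 (vertical axis) against that of CHA1 (horizontal axis) on the 14 arrays; filled symbols are altered strains, open symbols wild types, and shapes mark the experiment. The 2 JHD2 overexpression arrays are alone at the upper left, the 2 wild-type arrays of that experiment come next, and the other 10 are at the lower right.

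The genes that link serine to glycine differed from each other with JHD2 overexpression. SHM2, for the cytosolic hydroxymethyltransferase, gave 3863 and 2781 in that strain, against 4713 and 4731 in the wild type. The log2 change was -0.53 ± 0.13, with the overexpression arrays far apart. It was -0.29 without overexpression replicate 2 and -0.76 without overexpression replicate 1. SHM1, for the mitochondrial enzyme, gave 3525 and 3709 against 3663 and 3186, with overlapping groups and a change of 0.08 ± 0.12. In the set1 and jhd2 deletions the changes of SHM1 and SHM2 lay between -0.07 and 0.06.

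GCV1, for the aminomethyltransferase subunit of glycine cleavage, had groups that did not overlap in any of the 3 comparisons, with lower signals in both deletions and higher ones with overexpression. Of all tested genes, 17% were likewise lower without overlap in the set1 deletion, and 31.1% higher without overlap with overexpression. The share of genes apart in all 3 comparisons was not counted. The set1 deletion gave 781.8 and 934.4, against 1541 and 1488 in the wild type, a log2 change of -0.83 ± 0.22. The jhd2 deletion gave 904.0, 1155 and 1324, against 1352, 1366 and 1564, a change of -0.35 ± 0.18. All 3 deletion arrays lay below the 3 wild-type arrays, as for 3.56% of all tested genes, and the 3 numbered pairs gave -0.58, -0.24 and -0.24. With overexpression GCV1 was at 2558 and 1613 against 1154 and 1365, a change of 0.70 ± 0.22 that was 0.36 without overexpression replicate 1 and 1.03 without overexpression replicate 2.

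GCV2, for the glycine decarboxylase subunit, was at -0.33 ± 0.24, -0.03 ± 0.19 and 0.19 ± 0.24 in the set1 deletion, the jhd2 deletion and the overexpression strain. The overexpression arrays of GCV2 were at 2137 and 1377 on either side of the wild-type values of 1425 and 1589, and its change was -0.13 without overexpression replicate 1 and 0.51 without replicate 2. In the set1 deletion 0 of 10 members were under the threshold in limma, beside 0.259% of all tested genes, and 1, GCV1, had an unadjusted p under 0.05, beside 8.33%. The groups were apart for 7 members there (36.5% of all tested genes), 2 higher (19.4%) and 5 lower (17%). In the jhd2 deletion 0 of 10 were under it in limma, beside 0.0369%, and 0 had an unadjusted p under 0.05, beside 1.83%. The groups were apart for 1 member, GCV1, beside 4.78%. The median change of the 10 members was -0.09 in the set1 deletion, 0.02 in the jhd2 deletion and 0.16 with overexpression, where the medians of all tested genes were 0.02, -0.04 and 0.00053. Whether a gene's change differed between the altered strains was not tested.

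**Figure D3:**
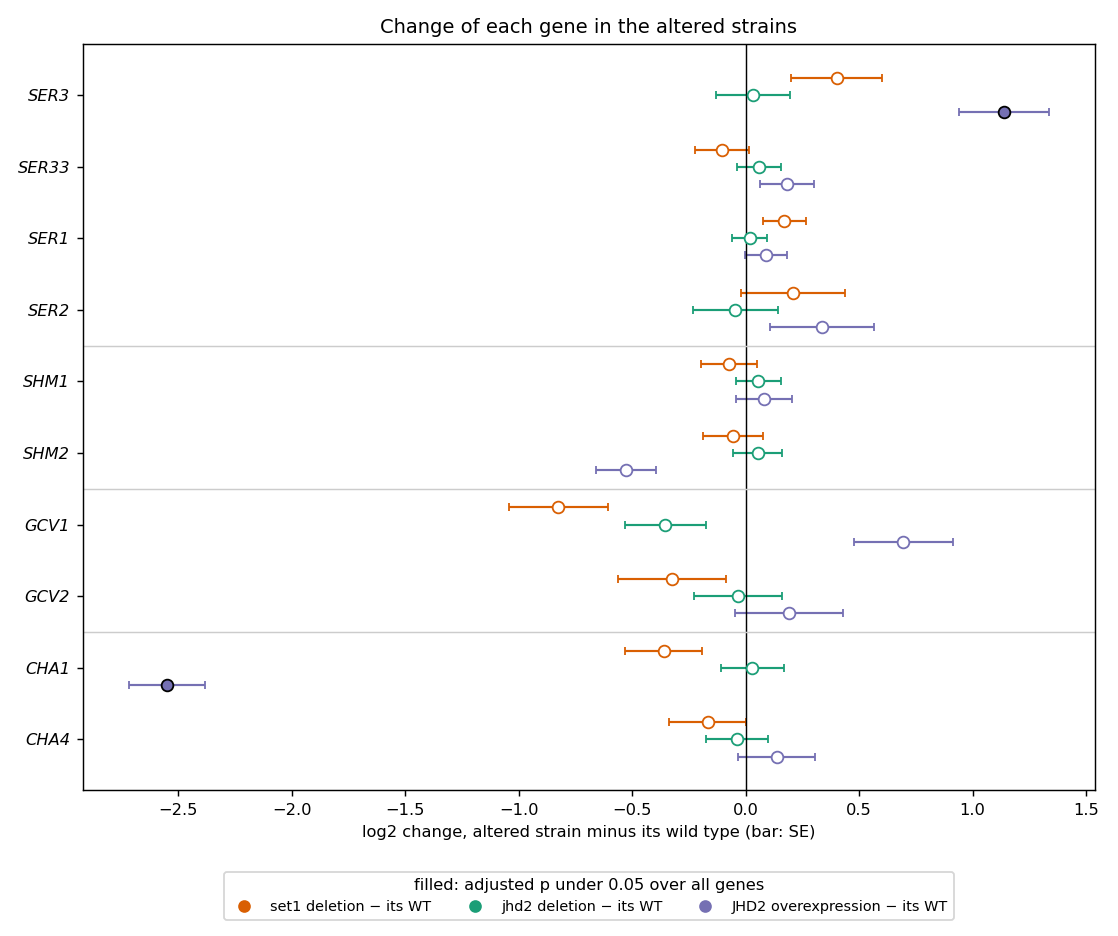
Log2 change of each of the 10 genes (horizontal axis, altered strain minus its wild type, bars showing SE) in the set1 deletion, the jhd2 deletion and the JHD2 overexpression strain, n = 2, 3 and 2 arrays per group. CHA1 at -2.55 and SER3 at 1.14, both with overexpression, are the filled points (adjusted p under 0.05).

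The wild types also differed in these genes. These differences come from the same group levels that were known when the genes were chosen, and they are likewise a description. The wild type of the overexpression experiment had 4 of 10 members under the threshold against the wild type of the jhd2 experiment, beside 16.3% of all tested genes. Of these, 2 were higher (10.7% of all genes) and 2 lower (5.5%). CHA1 was 2.29-fold lower, with 1353 and 1213 against 2981, 3008 and 2832 (log2 difference -1.20 ± 0.15, SE, n = 2 against 3). SER3 was 1.72-fold higher, with 544.2 and 599.6 against 314.1, 290.3 and 403.2 (0.78 ± 0.18). SER33 was at 0.35 ± 0.11, and SER2 was lower, at 837.7 and 1003 against 1584, 1674 and 2234 (-0.98 ± 0.21). These 4 genes were among 6 of the 10 whose groups did not overlap, beside 54.6% of all tested genes. Over the 23 alternative fits described below, CHA1 was under the threshold in all 23, SER2 in 22, SER3 in 21 and SER33 in 10. The count of 4 was 1 without wild-type replicate 1 of the overexpression experiment and 2 without replicate 2.

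Against the wild type of the set1 experiment, 3 of 10 members were under the threshold, beside 8.11% of all tested genes, 2 higher (5.24%) and 1 lower (2.86%). CHA1 was 2.50-fold lower (-1.32 ± 0.17, n = 2 against 2), and SER33 was at 0.48 ± 0.12. CHA4 was higher there, with 497.4 and 410.1 against 313.5 and 281.1 (0.61 ± 0.17). Of these 3 genes, CHA1 was under the threshold in all 23 alternative fits, SER33 in 15 and CHA4 in 8. SER3 was at 0.60 ± 0.20 and SER2 at -0.71 ± 0.23, and SER2 was at -0.39 without wild-type replicate 1 of the set1 experiment. The count of 3 was 1 without that array, 1 without either overexpression array or either array of their wild type, and 5 without wild-type replicate 3 of the jhd2 experiment. These comparisons share the wild-type arrays of the overexpression experiment. Between the wild types of the jhd2 and set1 experiments 0 of 10 members were under the threshold in limma, beside 0.388%. An unadjusted p under 0.05 was found for 2, SER1 at 0.22 ± 0.08 and CHA4 at 0.43 ± 0.15, beside 13.5%. The strain, the experiment and the growth medium, which the labels do not give, cannot be told apart in these differences. LEU2 set the wild type of the overexpression experiment apart, and genes specific to a cells set apart that of the set1 experiment.

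**Figure D4:**
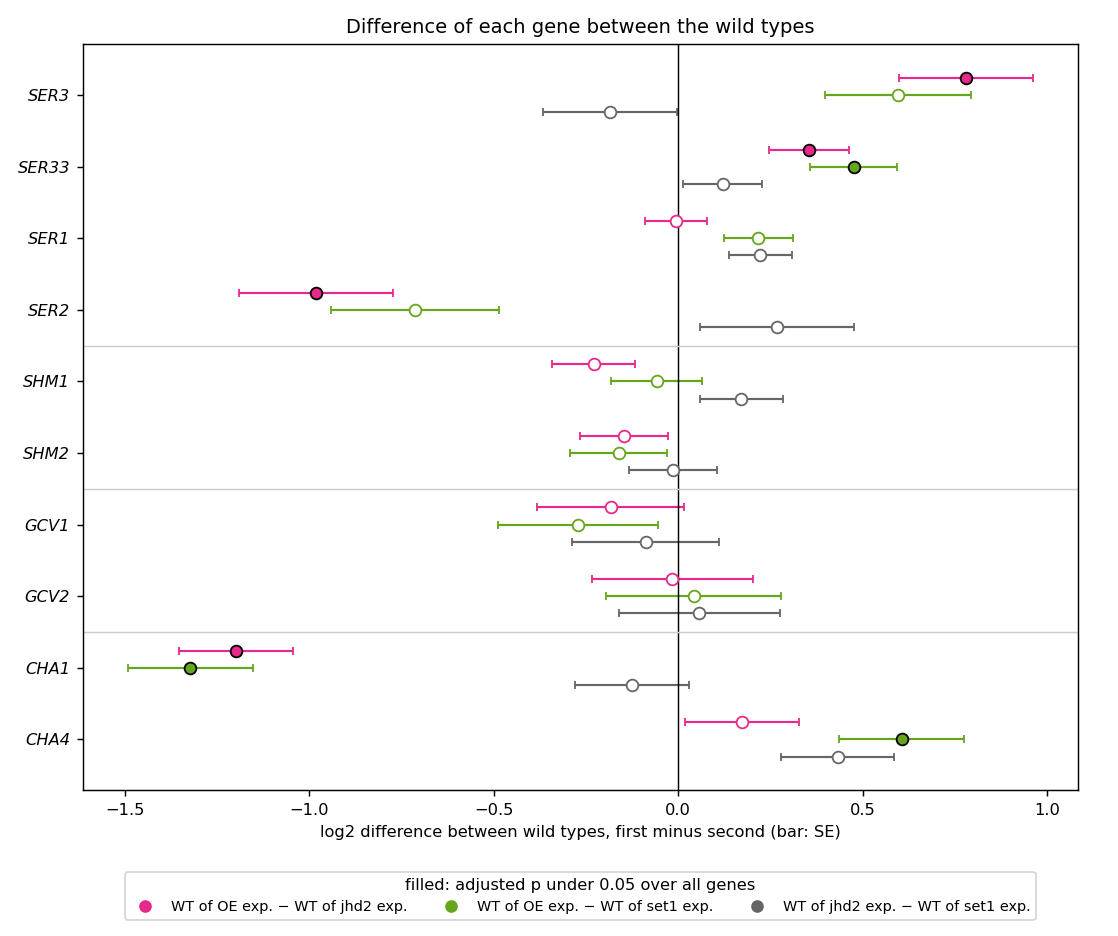
Log2 difference of each of the 10 genes between the wild types of the 3 experiments (horizontal axis, first named minus second, bars showing SE, n = 2 for the overexpression and set1 experiments and 3 for the jhd2 experiment). CHA1 is at -1.20 and -1.32 in the wild type of the overexpression experiment against the others, where SER3 is at 0.78 and 0.60.

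The pathways around serine were described by 41 further genes listed by function, of which 40 had a probe set and all 40 were tested. With JHD2 overexpression 1 of 40 passed, beside 0.517% of all tested genes. It was CHO1, for the phosphatidylserine synthase that consumes serine, at 1547 and 1646 against 2469 and 2335 (log2 change -0.59 ± 0.12, adjusted p = 0.0498, n = 2 against 2). CHO1 did not pass without any 1 of 10 arrays, both set1 deletion arrays, replicates 1 and 2 of both jhd2 experiment groups and the 4 arrays of its own experiment (-0.63 to -0.54). The median of the 40 was -0.04. TAT1, a permease gene, was at 1213 and 1273 against 1731 and 1883 (-0.54 ± 0.16, adjusted p = 0.134). Of the 7 permease genes none passed and 6 had a negative change, where 2703 of all 5415 tested genes had one.

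AGX1, for the transaminase that makes glycine from glyoxylate, was at 0.66 ± 0.27 (adjusted p = 0.212), and LPD1, for the dehydrogenase subunit shared with glycine cleavage, at 0.26 ± 0.11 (adjusted p = 0.225). MET13, a methylenetetrahydrofolate reductase gene, was at -0.69 ± 0.30 (adjusted p = 0.234), and SSY1, for the amino acid sensor of the plasma membrane, at -0.76 ± 0.32 (adjusted p = 0.228). The 5 threonine synthesis genes ran from 0.04 to 0.24, with the aspartate kinase gene HOM3 at 0.24 ± 0.12 (adjusted p = 0.296). None of these passed in limma with Benjamini-Hochberg adjustment.

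In the set1 deletion 0 of 40 passed in limma, beside 0.259% of all tested genes. An unadjusted p under 0.05 was found for 1, beside 8.33%. The median change of the 40 was -0.0026. The lowest was DIP5, for the dicarboxylic amino acid permease that also takes up serine and glycine, at 542.5 and 529.3 against 865.4 and 1065 (log2 change -0.84 ± 0.16, adjusted p = 0.0501). It passed without jhd2 deletion replicate 2 or 3, at the same change. The other genes nearest the threshold in their lists were STP1, for a transcription factor of the amino acid sensing pathway, at 0.32 ± 0.16, ILV1, for threonine deaminase, at 0.24 ± 0.14, HOM3 at 0.19 ± 0.12, GCV3, for the carrier subunit of glycine cleavage, at -0.19 ± 0.14, the methylenetetrahydrofolate reductase gene MET12 at -0.30 ± 0.17 and AGX1 at 0.31 ± 0.27.

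In the jhd2 deletion 0 of 40 passed in limma, beside 0.0369% of all tested genes, and 0 had an unadjusted p under 0.05, beside 1.83%. The groups overlapped for all 40, where they were apart for 4.78% of all tested genes. The changes ran from -0.24 to 0.30, with a median of -0.03. Among the genes nearest the threshold were GCN4, for the master regulator of amino acid synthesis, at 0.17 ± 0.11, CYS4, for the cystathionine synthase that consumes serine, at 0.15 ± 0.09, the aspartate semialdehyde dehydrogenase gene HOM2 at 0.10 ± 0.09 and the general permease gene GAP1 at 0.30 ± 0.28. MET12 was at -0.12 ± 0.14, AGX1 at -0.13 ± 0.22 and GCV3 at 0.02 ± 0.12.

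**Figure D5:**
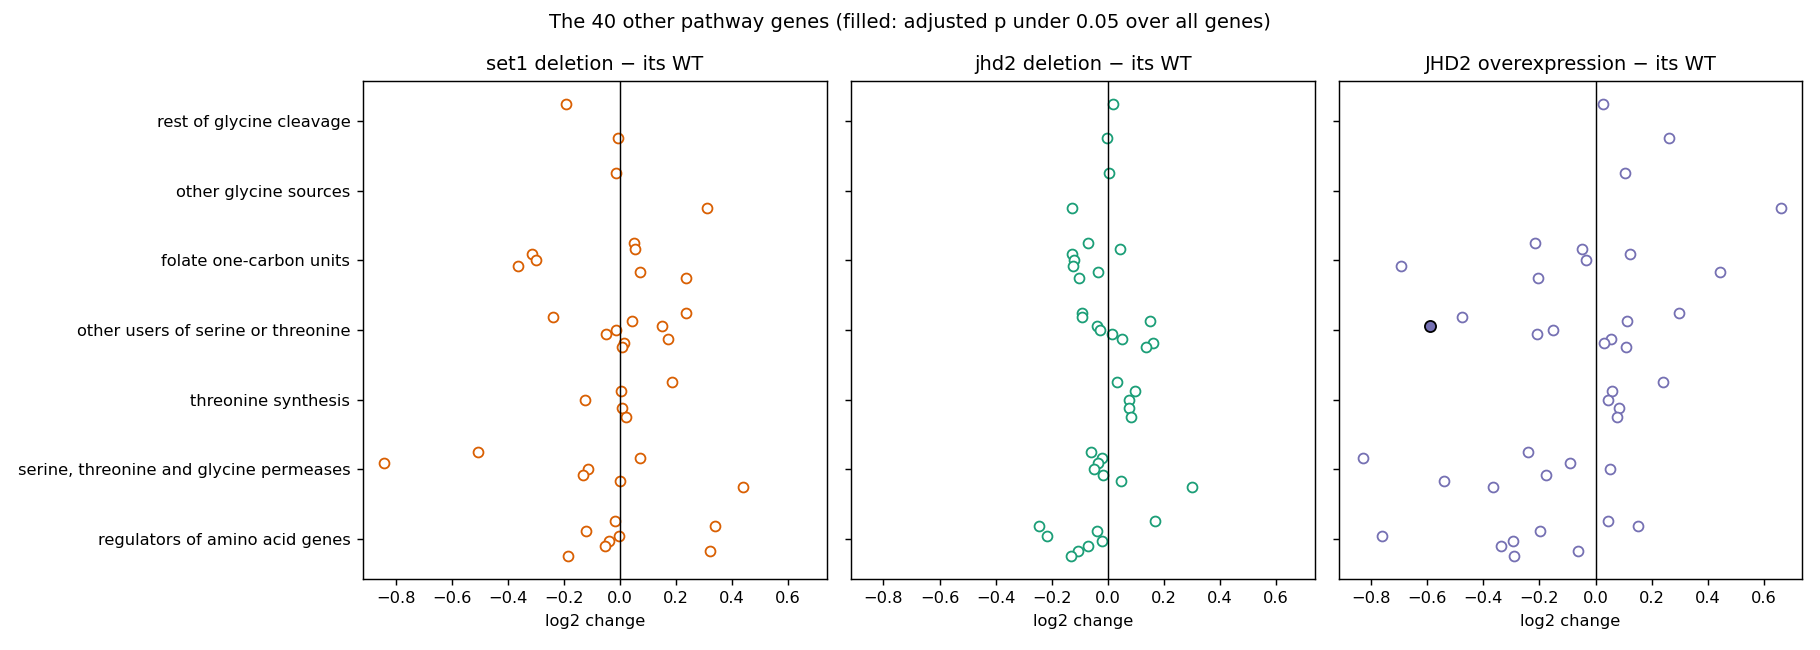
Log2 change (horizontal axis, altered strain minus its wild type) of the 40 other pathway genes, by functional list, in the set1 deletion, the jhd2 deletion and the JHD2 overexpression strain; each point is a gene. The 1 filled point is CHO1 at -0.59 with overexpression.

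More of these 40 genes passed when the wild type of the overexpression experiment was set against the others than in the altered strains. The same held for all tested genes, of which 0.259%, 0.0369% and 0.517% passed in the set1 deletion, the jhd2 deletion and with overexpression. For that wild type 13 of 40 passed against the jhd2 experiment, beside 16.3% of all tested genes, 12 higher (10.7% of all genes) and 1 lower (5.5%). Against the set1 experiment 12 passed, beside 8.11%, 11 higher (5.24%) and 1 lower (2.86%). Among the 7 permease genes 4 passed as higher in each comparison, beside the same 10.7% and 5.24% of all genes. AGP1, a broad amino acid permease gene named after its values were seen, was at 3490 and 2854 in the wild type of the overexpression experiment, and differed by 2.30 ± 0.25 on the log2 scale from the jhd2 experiment and by 1.39 ± 0.27 from the set1 experiment. In the RefSeq gene order the gene next to CHA1 on one side, the vacuole inheritance gene VAC17, was at -0.50 ± 0.21 with JHD2 overexpression (adjusted p = 0.227) and at -0.14 ± 0.19 between the wild types of the overexpression and jhd2 experiments (adjusted p = 0.639). HMLALPHA1, the gene on the other side, was at -0.00098 ± 0.17 with overexpression (adjusted p = 0.998), and its probe set also reads the copy of this gene at the mating-type locus.

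The genes whose pattern was most like that of CHA1 were found by Pearson correlation over the 14 arrays, with log2 values centred on each experiment. The 5 highest were ADH4, an alcohol dehydrogenase gene (r = 0.960), ABM1 (r = 0.941), GAR1, for a protein of small nucleolar ribonucleoproteins (r = 0.935), RRP46, for an exosome subunit (r = 0.924), and YIP3 (r = 0.923). Without the centring r was 0.0838 for ADH4, 0.264 for ABM1, 0.967 for GAR1, 0.862 for RRP46 and 0.801 for YIP3. The likeness of ADH4 and ABM1 thus depends on the centring. ADH4 changed by -1.62 ± 0.13 with overexpression and ABM1 by -1.91 ± 0.28. ABM1 was dim, at a mean of 22.4 with overexpression against 83.5 in the wild type. In the set1 and jhd2 deletions ADH4 was at -0.41 and -0.16, and ABM1 at -0.17 and -0.03. Among the members SHM2 had the highest centred r with CHA1, at 0.715, and SER3 the lowest, at -0.894, with 0.881 and -0.947 uncentred. The 4 arrays of the overexpression experiment carried most of the spread in CHA1, so these values describe mainly that experiment.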

How the data were processed

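The authors deposited a linear intensity for each probe set, computed with MAS5 per the submitters' processing notes. No software version or scaling target is stated there, and each array had a trimmed mean of 500.2 to 500.3. Probe sets were named from the platform annotation and a RefSeq gene table of assembly R64 (5498 of 10928 matched 1 S. cerevisiae gene). The brightest probe set per gene was used. Values under 1 were set to 1 and put on the log2 scale. Genes were tested if their mean exceeded the 95th percentile of 1746 fission yeast probe sets. That percentile on an array, 7.28 to 16.7, was its background. The number of arrays limits the precision.

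A linear model with 6 group means was fitted to all genes and arrays in limma 3.58.1 (R 4.3.3) with an intensity trend. P-values are two-sided, adjusted by the Benjamini-Hochberg method within a comparison, with a threshold of 0.05. The fit was also run on simulated data with independent noise on each array. Such data cannot check the calls where real arrays deviate together. The members, lists and tests were chosen with earlier results of these data known. Besides the members, the genes named are those called in an altered strain, the smallest p of each list, the 5 most like CHA1 and its neighbours, and AGP1, which was chosen after its values were seen. Same-numbered arrays deviated together in the jhd2 experiment (r = 0.635, 0.620 and 0.692 across genes), but the labels do not say whether they were paired. The main fit and the overlap of groups do not pair arrays. In the set1 experiment r was 0.731 and in the overexpression experiment -0.137, over 2 numbers each. Alternatives were other scalings, filters, variance models and sets of arrays, and a block for the number.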

Additional observations from a re-analysis of the deposited data

How the results depend on the processing

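CHA1 kept its call with JHD2 overexpression in all 25 alternatives (-2.85 to -2.24), and in all 23 for each of its differences between the wild type of the overexpression experiment and the others. In the 25 with overexpression, SER3 passed in 14, SHM2 in 6 and GCV1 in 4, and not all of those for SHM2 are named below. The 2 members called with overexpression became 1, CHA1, with no intensity trend and with the 3′ to 5′ ratio as a covariate, and 4, with SHM2 and GCV1 added, with array weights, with the arrays of the comparison alone and with the replicate block, and 1 to 2 when 1 array was left out. All genes called in that comparison numbered 28, and 5 to 1175 over the alternatives. Counts of members in the wild types became 1 to 4 against the jhd2 experiment and 1 to 5 against the set1 experiment when 1 array was left out, and 1 against the set1 experiment with the arrays of the comparison alone. Of the other 40 genes, 1 passed in the set1 deletion with median centring, a pseudocount of 32, the mean of probe sets or the replicate block, and 0 to 1 when 1 array was left out. In the jhd2 deletion 1 passed with array weights, where 231 of all genes did, against 2. With overexpression 0 passed with median centring, no filter, no intensity trend or the covariate, 9 with array weights, 8 with the arrays of the comparison alone, 7 with the replicate block, and 0 to 1 when 1 array was left out. Outside the jhd2 experiment, same-numbered set1 deletion and wild-type arrays also deviated together across genes (r = 0.731), while those of the overexpression experiment did not (r = -0.137). Each r rests on 2 numbers, and the labels do not say whether arrays were paired. With the block all genes called numbered 110 in the set1 deletion and 1105 with overexpression, against 14 and 28. With the numbers of the overexpression experiment crossed, chosen after seeing the data, 4 members and 7 other genes passed there, and 1 member and 2 other genes in the set1 deletion. In the jhd2 experiment the block changed no call among these genes. Median centring shifted the median of all genes by -0.13 and -0.18 and quantile normalization by -0.12 and -0.13 in the wild type of the overexpression experiment against those of the jhd2 and set1 experiments, and SER33 did not pass in either comparison with median centring (0.23 and 0.29). CHA4 did not pass there with quantile normalization (0.37) or median centring (0.42). Synthesis minus CHA1 ran from 2.72 to 3.25 with overexpression, 0.42 to 0.64 in the set1 deletion and -0.18 to 0.11 in the jhd2 deletion. The cause of these changes was not tested.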
